A study of Arabidopsis thaliana with 16 samples.

Results

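The 10 genes described here belong to the core response of Arabidopsis thaliana to low oxygen, but most have no assigned function. They are AT2G17850, AT5G44730, AT3G27220, AT4G27450, AT3G29970, the wound-induced polypeptide genes AT4G10270 and AT4G33560, and AT5G10040, AT4G24110 and AT5G66985. They were chosen by name, as genes with a probe set (a group of short probes for 1 transcript) of their own that had responded to hypoxia in earlier results of these arrays. Each of the 10 has 1 probe set, out of 22746 tested and out of 13286 genes matched to a probe set of their own. The response to hypoxia therefore chose them, and their changes between hypoxia and normoxia are given as a description without a test. HRE1-RNAi minus wild type did not choose them and was tested.

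RNA came from roots of 14-d-old seedlings of the Columbia ecotype on 16 one-colour Affymetrix arrays, in 4 groups of 4. They were HRE1-RNAi in hypoxia, wild type in hypoxia, HRE1-RNAi in normoxia and, as the last, wild type in normoxia, each for 6 h. Hypoxia was 3% oxygen in nitrogen, given in the dark to seedlings floating with their roots in a medium that contained sucrose. All seedlings were raised on sucrose plates, and whether those in normoxia were also floated in the dark is not stated. HRE1-RNAi carries an RNA interference construct against HRE1 (also AtERF73), and its promoter is not given in the labels. The titles name a single line, HRE1-RNAi20, whereas the descriptions run from RNAi20 to RNAi23 in normoxia and from RNAi21 to RNAi24 in hypoxia, so whether the arrays come from 1 line or several cannot be told from the labels. The labels call the arrays biological replicates without saying what was separate between them, so p-values reflect only how these arrays vary, which may be technical. HRE1 itself had 0 probe sets paired with it and was not analysed here, so the extent of its knock-down is not known from these values.

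Plants sense oxygen through the stability of a small group of ethylene response factors, to which HRE1 belongs. When oxygen is plentiful an N-terminal cysteine of these factors is oxidised and they are degraded. When it is scarce they persist and induce a core set of genes in most organs, which includes the enzymes of fermentation. Many other genes of that set encode small or poorly studied proteins. Among the genes described here, AT2G17850 encodes a protein with a rhodanese domain, a fold found in sulfurtransferases. AT5G44730 encodes a haloacid dehalogenase-like hydrolase, and AT3G27220 a protein with kelch repeats. AT4G27450 resembles aluminium-induced proteins, and AT3G29970 belongs to the B12D family of small proteins. AT4G10270 and AT4G33560 belong to a family of small wound-responsive polypeptides. The proteins of AT5G10040, AT4G24110 and AT5G66985 have no assigned function here.

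Values are MAS5 intensities on a linear scale, and on each array the mean, taken after trimming 2% of the values at either end, was close to 500. Median intensity over all probe sets lay between 166 and 191 in HRE1-RNAi hypoxia, 169 and 178 in wild type hypoxia, 179.95 and 206.5 in HRE1-RNAi normoxia, with 179.9 to 194 for wild type in normoxia. Both HRE1-RNAi arrays numbered 4 stood apart, with array weights of 0.40 in hypoxia and 0.42 in normoxia where the other 14 lay between 0.65 and 2.00, and results are therefore also given without them. The 25S rRNA control had a log2 signal of 10.8 to 14.3 in hypoxia and 8.18 to 11.7 in normoxia in HRE1-RNAi, which overlapped, and of 13.8 to 14.2 in hypoxia and 9.21 to 12.1 in normoxia in wild type, which did not. Of 28 differences in array measures between groups, tested by exact permutation, none passed after adjustment (smallest adjusted p = 0.13), where 4 against 4 arrays allow no p below 0.029. In wild type, median intensity, 25S rRNA and the summed root and shoot markers described below reached that smallest p between hypoxia and normoxia. In HRE1-RNAi both marker sums did. Adjustment over 28 tests left little room for any to pass, so the lack of a pass does not show that the measures were alike. Only 3 of 10 root markers were paired with a probe set, all of them root hair genes: EXPA18 read 222 to 849, EXPA7 79.4 to 729 and XTH26 5.4 to 327. Their summed signal was 363 to 993 in HRE1-RNAi hypoxia and 1567 to 1866 in HRE1-RNAi normoxia, and 351 to 575 in wild type hypoxia and 1148 to 1687 in wild type normoxia. Of 9 shoot markers 2 were measured, and LHCB4.1, a chloroplast antenna gene, read 698 to 1721 while RCA read 239 to 408. The summed shoot signal was 983.5 to 1429 in HRE1-RNAi hypoxia and 1728 to 1911 in HRE1-RNAi normoxia, and 1021 to 1104 in wild type hypoxia and 1717.5 to 1990.0 in wild type normoxia. The part of these measures in the changes of the 10 genes was not tested. In whole roots, fewer cells of a type and less RNA per cell cannot be told apart.

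**Figure D1:**
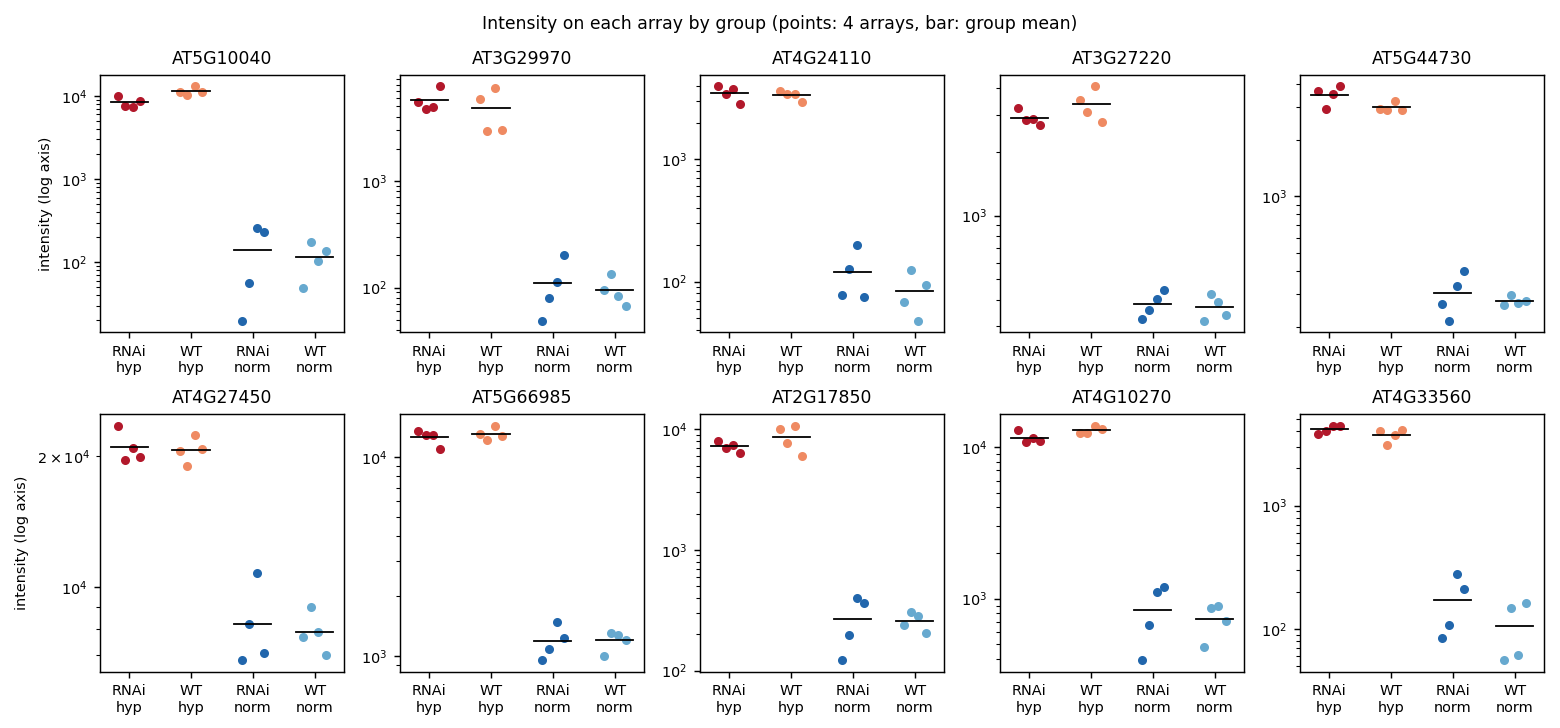
Intensity of the 10 genes on each of 16 arrays, on a log axis, with a panel per gene. Points are arrays, grouped from left to right as HRE1-RNAi and wild type in hypoxia, then HRE1-RNAi and wild type in normoxia, and bars are group means. In every panel all 8 hypoxia arrays lie above all 8 normoxia arrays.

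Hypoxia arrays lay above normoxia arrays for every one of the 10 genes, in both lines and without overlap. Groups did not overlap, with hypoxia higher, for 7.93% of all probe sets in HRE1-RNAi and 9.07% in wild type. Those shares are background only, because the hypoxia response chose the genes. Changes below are differences of mean log2(intensity + 16), which understates changes from low intensities, and n = 4 arrays per group throughout. Their median over the 10 genes was 4.25 in HRE1-RNAi and 4.55 in wild type, beside -0.06 over all probe sets in each line. They ranged from 1.37 to 6.19 in HRE1-RNAi and from 1.39 to 6.53 in wild type. Without both HRE1-RNAi arrays numbered 4 the HRE1-RNAi median was 4.40.

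The genes with a recognisable protein domain spanned a wide range of changes. AT2G17850 measured 8048.5, 6992, 7409.6 and 6378 in HRE1-RNAi hypoxia, against 122.5, 197, 397 and 363 in HRE1-RNAi normoxia. In wild type its arrays read 9978.5, 7763, 10749 and 6027 in hypoxia and 237, 303, 282 and 206 in normoxia. The log2 change was 4.79 ± 0.26 in HRE1-RNAi and 4.96 ± 0.26 in wild type (SE). This rhodanese-domain gene was thus 26.7-fold higher by group means in HRE1-RNAi and 33.5-fold higher in wild type, and wild type hypoxia array 4 was its lowest hypoxia array. For the hydrolase gene AT5G44730 the arrays read 3653, 2922, 3521.5 and 3872 in HRE1-RNAi hypoxia, against 267, 217, 330.3 and 401 in HRE1-RNAi normoxia. Wild type gave 2931, 2898, 3244 and 2889 in hypoxia, against 262, 296.5, 268.5 and 277.5 in normoxia. Hypoxia minus normoxia came to 3.48 ± 0.15 log2 in HRE1-RNAi and 3.36 ± 0.15 in wild type (SE). Its hypoxia and normoxia arrays were close together within wild type, with coefficients of variation of 5.69% and 5.43%. The kelch-repeat gene AT3G27220 measured 3212, 2815.5, 2866 and 2692 in HRE1-RNAi hypoxia, against 324, 359.7, 402 and 444 in HRE1-RNAi normoxia. The wild type arrays stood at 3520.4, 3092, 4082 and 2770.5 in hypoxia and at 319, 424, 391 and 341 in normoxia. On the log2 scale it changed by 2.88 ± 0.14 in HRE1-RNAi and 3.13 ± 0.14 in wild type (SE). Its lowest hypoxia array was 6.06 times its highest normoxia array in HRE1-RNAi and 6.53 times in wild type. AT4G27450 measured 23545, 19660.0, 20940.3 and 19899 in HRE1-RNAi hypoxia, against 6806, 8214, 10775 and 7060.0 in HRE1-RNAi normoxia. For wild type the values were 20626, 18978, 22354 and 20759 in hypoxia and 7676, 9005, 7890.2 and 6970.3 in normoxia. The log2 change was 1.37 ± 0.13 in HRE1-RNAi and 1.39 ± 0.13 in wild type (SE). This was the smallest change of the 10, from a gene that was already bright in normoxia, and its group means differed 2.56-fold in HRE1-RNAi and 2.62-fold in wild type.

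The B12D gene and the wound-induced genes changed by 3.87 to 5.61 log2 in HRE1-RNAi and by 4.14 to 5.37 in wild type. The B12D gene AT3G29970 measured 5540.4, 4715, 4948 and 7705 in HRE1-RNAi hypoxia, against 48.9, 80.4, 112 and 202.5 in HRE1-RNAi normoxia. In wild type its arrays read 5896, 2963, 7491 and 2993 in hypoxia and 94.9, 134, 82.5 and 67.3 in normoxia. Hypoxia minus normoxia came to 5.61 ± 0.34 log2 in HRE1-RNAi and 5.37 ± 0.34 in wild type (SE). Wild type hypoxia arrays fell into a higher and a lower pair, arrays 1 and 3 against 2 and 4, and the coefficient of variation there was 46.4%. Of the wound-induced genes, AT4G10270 measured 12862, 10849.7, 11370.4 and 10945 in HRE1-RNAi hypoxia, against 394, 672, 1106 and 1194 in HRE1-RNAi normoxia. Wild type gave 12329, 12428, 13822 and 13078 in hypoxia, against 481, 862, 899 and 708.5 in normoxia. On the log2 scale it changed by 3.87 ± 0.25 in HRE1-RNAi and 4.14 ± 0.25 in wild type (SE). Its hypoxia arrays were tight in both lines and its normoxia arrays were not, since the highest exceeded the lowest 3.03-fold in HRE1-RNAi normoxia and 1.87-fold in wild type normoxia. AT4G33560 measured 3830.4, 3989, 4389.6 and 4452 in HRE1-RNAi hypoxia, against 84.5, 107, 279 and 211 in HRE1-RNAi normoxia. The wild type arrays stood at 3999.8, 3118, 3729.8 and 4085 in hypoxia and at 56.1, 147, 61.6 and 162 in normoxia. The log2 change was 4.62 ± 0.31 in HRE1-RNAi and 5.05 ± 0.31 in wild type (SE). The second wound-induced gene had group means 24.5-fold apart in HRE1-RNAi and 35.04-fold apart in wild type.

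The genes without an assigned function included the largest change of the set. AT5G10040 measured 10045, 7641, 7389.9 and 8739.5 in HRE1-RNAi hypoxia, against 19.9, 56.9, 259 and 232 in HRE1-RNAi normoxia. For wild type the values were 11027, 10170.4, 13098.5 and 11255 in hypoxia and 49.8, 177, 104 and 135 in normoxia. Hypoxia minus normoxia came to 6.19 ± 0.51 log2 in HRE1-RNAi and 6.53 ± 0.51 in wild type (SE). Among all 22746 probe sets this change ranked number 4 in HRE1-RNAi and number 2 in wild type. Group means were 59.6-fold apart in HRE1-RNAi and 97.8-fold apart in wild type, and 1 HRE1-RNAi normoxia array, at 19.9, was close to the pseudocount. AT4G24110 measured 3961, 3412, 3746 and 2814 in HRE1-RNAi hypoxia, against 78.3, 126, 199.8 and 75.4 in HRE1-RNAi normoxia. In wild type its arrays read 3601, 3408, 3453 and 2919 in hypoxia and 67.8, 124, 47.9 and 93.1 in normoxia. On the log2 scale it changed by 4.77 ± 0.24 in HRE1-RNAi and 5.14 ± 0.24 in wild type (SE). With a pseudocount of 64 its change was 4.31 in HRE1-RNAi and 4.56 in wild type, and that of AT4G33560 was 4.25 in HRE1-RNAi and 4.53 in wild type. AT5G66985 measured 13513, 12813, 12864 and 10889.5 in HRE1-RNAi hypoxia, against 952.5, 1087.5, 1484 and 1225 in HRE1-RNAi normoxia. Wild type gave 13077, 12166, 14350.3 and 12707 in hypoxia, against 998, 1305, 1267 and 1205.5 in normoxia. The log2 change was 3.40 ± 0.13 in HRE1-RNAi and 3.44 ± 0.13 in wild type (SE). It had among the smallest standard errors of the set, and its lowest hypoxia array was 7.34 times its highest normoxia array in HRE1-RNAi and 9.32 times in wild type.

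**Figure D2:**
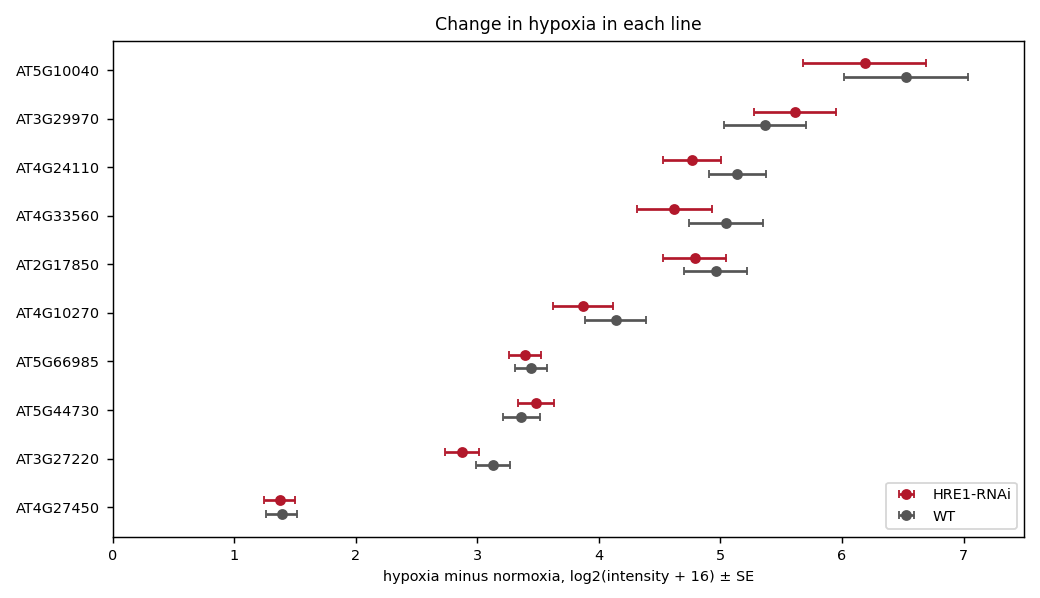
Hypoxia minus normoxia of each gene (log2 difference with its standard error) in HRE1-RNAi (upper point) and wild type (lower point), ordered by the wild type change. Points of both lines lie close together for each gene, from 1.37 and 1.39 for AT4G27450 to 6.19 and 6.53 for AT5G10040.

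Whether targeting HRE1 alters these genes was asked by the comparison of HRE1-RNAi with wild type. In hypoxia 0 of the 10 genes were called, where 0.0220% of all probe sets were called in either direction, and the smallest unadjusted p of the 10 by limma was 0.16, so that 0 of 10 had an unadjusted p below 0.05, as had 1036 of all 22746 probe sets. Of the 10 differences, 5 were above 0 and 5 below, with a median of -0.02 beside -0.01 over all probe sets. The rhodanese-domain gene AT2G17850 differed by -0.23 ± 0.26 log2 (95% interval -0.77 to 0.32). The hydrolase gene AT5G44730 differed by 0.22 ± 0.15 log2 (95% interval -0.09 to 0.53). AT3G27220 differed by -0.20 ± 0.14 log2 (95% interval -0.49 to 0.09). The intervals of these 3 genes stayed inside a 2-fold difference. AT4G27450 differed by 0.02 ± 0.13 log2 (95% interval -0.24 to 0.28). The B12D gene AT3G29970, the most variable in hypoxia, differed by 0.34 ± 0.34 (-0.37 to 1.04). The wound-induced genes differed by -0.17 ± 0.25 for AT4G10270 (-0.69 to 0.36) and by 0.16 ± 0.31 for AT4G33560 (-0.48 to 0.81). In all, 8 of the 10 intervals lay within a 2-fold change, as did 79.6% of those of all probe sets. AT4G24110 differed by 0.05 ± 0.24 (-0.44 to 0.54) and AT5G66985 by -0.06 ± 0.13 (-0.34 to 0.21). AT5G10040 differed by -0.43 ± 0.51 (-1.51 to 0.65), with an adjusted p of 1.0 by limma. Its HRE1-RNAi hypoxia arrays, at 7389.9 to 10045, all lay below its wild type hypoxia arrays, at 10170.4 to 13099, and it was the only gene of the 10 whose lines did not overlap in hypoxia. The groups did not overlap for 2.57% of all probe sets in this comparison, and lay that way round for 1.31%. Each standard error is shared by all groups and so includes the spread of the normoxia arrays, which was wide for AT5G10040. All 10 genes varied more in normoxia than in hypoxia in HRE1-RNAi, and 6 of 10 in wild type. For AT4G10270 the log2 SD was 0.11 in HRE1-RNAi hypoxia and 0.08 in wild type hypoxia, against 0.72 and 0.40 in normoxia. Intervals may therefore be too wide, and p-values too large, for such genes in hypoxia. The count of 0 of 10 with an unadjusted p below 0.05 rests on the same shared spread and is no firm result. With the hypoxia groups alone the difference of AT5G10040 was the same by design. Its adjusted p by limma was again 1.0 there, with a range of 0.82 to 1.0 over all alternatives. The log2 SD of AT5G10040 was 0.20 in HRE1-RNAi hypoxia and 0.15 in wild type hypoxia, against 1.42 and 0.66 in normoxia. With the hypoxia groups alone only 3 of 22746 probe sets were called, so most adjusted p-values there are high. The adjusted p therefore cannot show whether the narrower hypoxia spread matters for this gene, and its unadjusted p there is not given.

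In normoxia 0 of the 10 genes were called either, where 0.0264% of all probe sets were called. The smallest unadjusted p of the 10 by limma was 0.071, and 7 differences were above 0, with a median of 0.07 beside -0.01 over all probe sets. AT4G33560 averaged 170.3 in HRE1-RNAi normoxia and 107 in wild type normoxia, a difference of 0.59 ± 0.31 (-0.06 to 1.23). AT4G24110 averaged 119.9 in HRE1-RNAi normoxia and 83.2 in wild type normoxia, a difference of 0.42 ± 0.24 (-0.07 to 0.91). These were the largest differences of the set, and arrays of both lines overlapped for all 10 genes, where 3.04% of all probe sets did not overlap. The other 8 genes lay between -0.09 and 0.10. In all, 8 of the 10 intervals were within a 2-fold change, as were 79.7% of those of all probe sets. These intervals use 1 spread estimate per gene, shared by all groups. The median log2 SD of the 10 genes was 0.65 in HRE1-RNAi normoxia and 0.30 in wild type normoxia, against 0.14 in hypoxia in each line. The intervals in normoxia may therefore be too narrow, and the count within a 2-fold change is no firm bound. The difference of the hypoxia responses, HRE1-RNAi minus wild type, was called for 0 of the 10 genes (0.0176% of all probe sets). It was below 0 for 8 genes, with a median of -0.21 beside -0.0041 over all probe sets, and ranged from -0.43 ± 0.43 for AT4G33560 (-1.34 to 0.48) to 0.24 ± 0.48 for AT3G29970 (-0.76 to 1.25). The smallest unadjusted p of the 10 was 0.21. Of these 10 intervals 5 stayed within a 2-fold difference, as did 58.4% of those of all probe sets. Those of the other 5 genes reached beyond it. Without the HRE1-RNAi arrays numbered 4 the median was -0.04 between lines in normoxia, 0.02 in hypoxia and -0.02 for the difference of responses, and again 0 genes were called. Leaving out 1 array at a time, the median was -0.04 to 0.31 in normoxia, -0.07 to 0.02 in hypoxia and -0.40 to 0.06 for the difference of responses. The 0.31 and the -0.40 were those without HRE1-RNAi normoxia array 1, and the 0.06 that without HRE1-RNAi normoxia array 3.

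**Figure D3:**
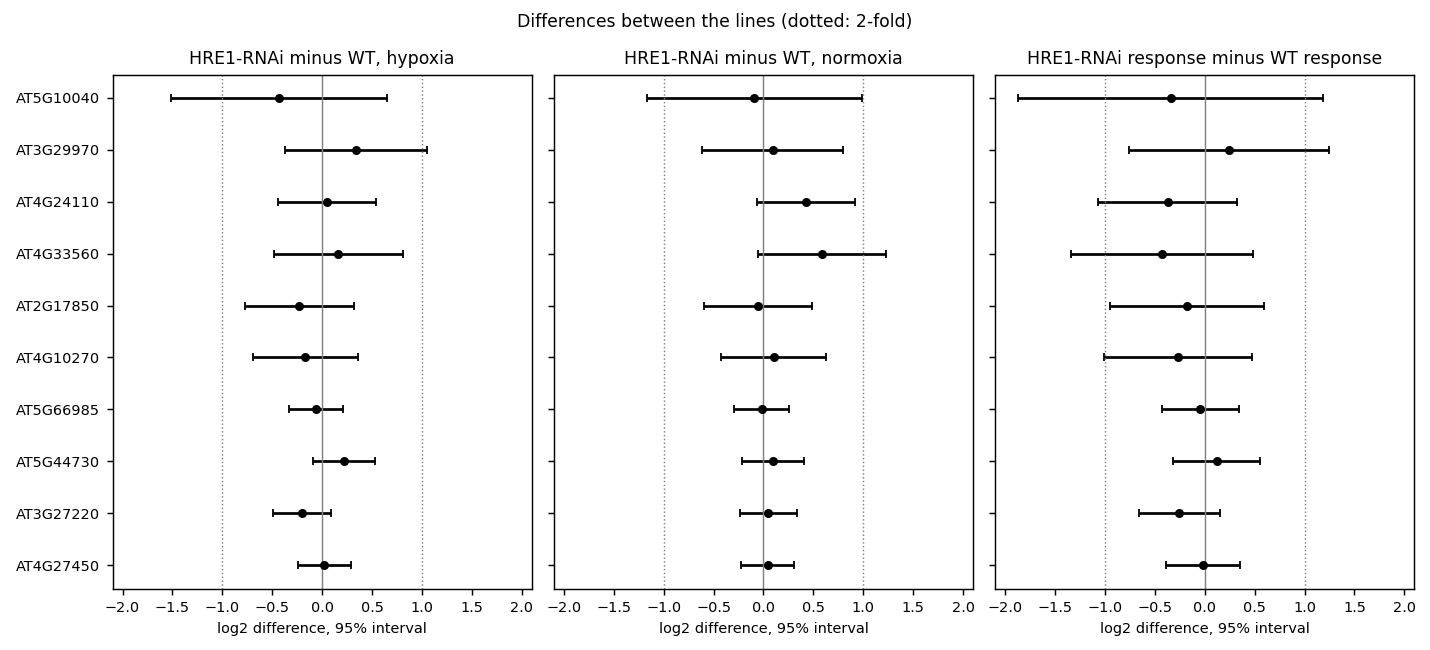
HRE1-RNAi minus wild type in hypoxia, in normoxia, and the difference of both hypoxia responses, as log2 differences with 95% intervals for each gene, with dotted lines at a 2-fold difference. All 30 intervals include 0, and those of AT5G10040 are the widest.

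Variation between arrays of 1 group was shared by the genes in part, and its median size was larger in normoxia. Each array's value was expressed as a log2 deviation from the mean of its own group, which removes the differences between groups. The median SD of the 10 genes was 0.14 in HRE1-RNAi hypoxia and 0.65 in HRE1-RNAi normoxia, beside 0.28 and 0.30 over all probe sets. In wild type it was 0.14 in hypoxia and 0.30 in normoxia, beside 0.27 and 0.24 over all probe sets. All 10 genes had the larger SD in normoxia in HRE1-RNAi, and 6 of 10 in wild type, compared with 53.5% and 44.3% of all probe sets. The ratio of the normoxia SD to the hypoxia SD lay between 1.76 for AT3G27220 and 7.04 for AT5G10040 in HRE1-RNAi, and between 0.52 for AT3G29970 and 5.28 for AT4G10270 in wild type. The 3 genes with the highest normoxia intensities had ratios of 2.53 (AT4G27450), 1.98 (AT5G66985) and 6.40 (AT4G10270) in HRE1-RNAi, and of 1.58, 1.70 and 5.28 in wild type. The part of low intensity in the normoxia spread was not tested.

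HRE1-RNAi normoxia array 1 was below its group mean for 10 of 10 genes, by a median of 0.59 log2, and was the lowest array of its group for 8. Of all probe sets 49.0% were below the group mean on that array and 18.5% were lowest there. HRE1-RNAi normoxia array 3 was above the mean for 10 of 10, by a median of 0.46, and array 4 for 8 of 10. Among all probe sets, 51.3% were above the mean on array 3 and 48.2% on array 4. AT5G10040 gave the widest spread, with 13.00-fold between the lowest and highest HRE1-RNAi normoxia arrays. In wild type normoxia, array 1 was below the mean for 9 of 10 and array 2 above it for 10 of 10. There 48.8% of all probe sets were below the mean on array 1 and 51.1% above it on array 2. In hypoxia wild type array 3 was above its mean for 10 of 10 and HRE1-RNAi array 1 for 8 of 10. The shares of all probe sets above the mean on these hypoxia arrays were 53.1% and 50.8%. AT3G29970 deviated there by 0.75 log2 on wild type array 3, more than on any wild type normoxia array. The other core hypoxia genes followed in part, with 14 of 19 below the mean on HRE1-RNAi normoxia array 1 and 17 of 19 above it on wild type hypoxia array 3. The poly-A spikes, RNAs added to the samples as controls, had a mean log2 signal of 7.05 on HRE1-RNAi normoxia array 1, against 7.76 to 8.50 on the other HRE1-RNAi normoxia arrays. They also stood at 7.00 on wild type normoxia array 1, against 8.19 to 8.61 on the other wild type normoxia arrays. The 3' to 5' difference of the control transcripts was 0.93 log2 on HRE1-RNAi normoxia array 1, against 0.98 to 1.32 on the other HRE1-RNAi normoxia arrays. On wild type normoxia array 1 it was 0.95, inside the 0.93 to 1.20 of the other wild type normoxia arrays. HRE1-RNAi normoxia array 1 was the lowest of all 16 arrays in this measure. The part of these measures in the shared deviations was not tested.

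**Figure D4:**
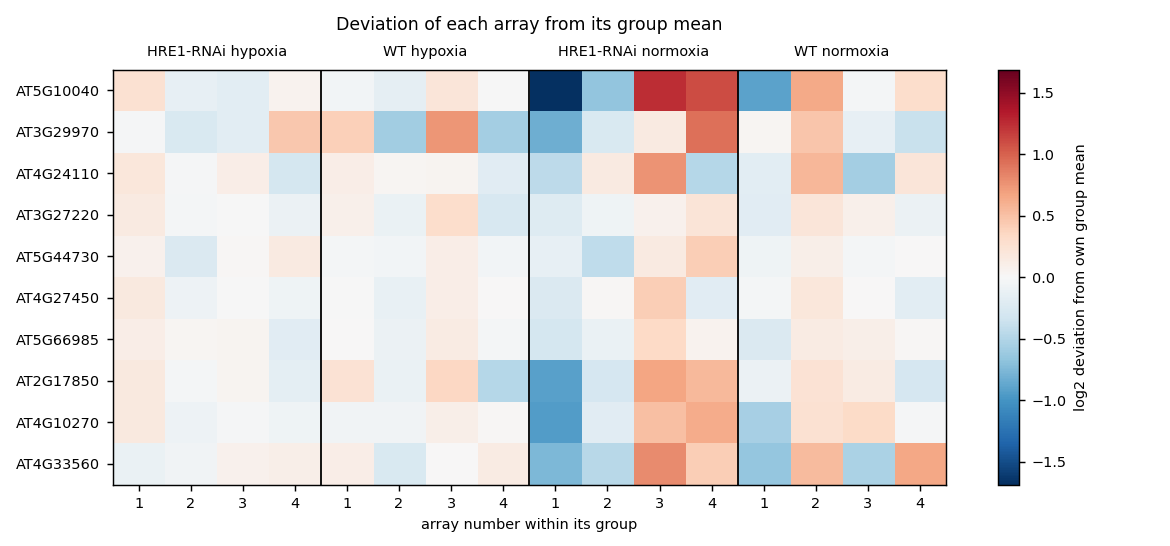
Log2 deviation of each array (columns, numbered within their group) from its group mean for the 10 genes (rows), with red above and blue below the mean. HRE1-RNAi normoxia array 1 is blue in all 10 rows and array 3 red in all 10, while the hypoxia columns are mostly paler, apart from AT3G29970 in wild type.

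Between pairs of the 10 genes these deviations correlated with a median Pearson r of 0.60 over the 16 arrays, and 44 of 45 pairs were above 0. The pair most alike was AT5G10040 and AT4G10270 (r = 0.95), a gene without assigned function and a wound-induced gene. The wound-induced pair itself had r = 0.69. AT4G24110 and AT5G44730 were the pair least alike (r = -0.02). Against the mean of the other genes, a gene's deviations had a median r of 0.75, with 0.44 as the lowest and 0.93 as the highest. The median over all other probe sets against the mean of the 10 was 0.01, and 3.02% of them exceeded 0.5. For the other core hypoxia genes the median was 0.26. Over the 8 normoxia arrays alone the median pair had r = 0.67. There a gene against the mean of the others had a median of 0.83, the other core genes one of 0.33, and 9.85% of all probe sets exceeded 0.5. Over the 8 hypoxia arrays alone the median pair had r = 0.46. There a gene against the mean of the others had a median of 0.61, the other core genes one of 0.50, and 18.5% of all probe sets exceeded 0.5. Without both HRE1-RNAi arrays numbered 4 the median pair had r = 0.64, and all 45 pairs were above 0. These values are descriptions, since all genes of an array share its RNA, labelling and scaling.

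The other genes of the core response came from a list of 44, drawn up from general knowledge and with earlier results of these arrays known. Of these, 19 were paired with a probe set of their own. The rest had no such pairing in the probe table used, which does not mean that the array lacks them. In HRE1-RNAi 17 were called higher in hypoxia, 0 lower, and 2 stayed uncalled, with a median change of 2.05. In wild type the counts were also 17, 0 and 2, with a median of 2.04 against 4.55. CML38 (AT1G76650), a calmodulin-like protein gene, averaged 5573 in hypoxia and 69.6 in normoxia in HRE1-RNAi, a change of 6.12 ± 0.23. In wild type it averaged 6143 in hypoxia and 142 in normoxia, a change of 5.26 ± 0.23. AT3G23170 changed by 3.65 ± 0.19 in HRE1-RNAi and by 3.96 ± 0.19 in wild type. The peroxidase gene AT5G39580 changed by 4.90 ± 0.19 in HRE1-RNAi and 3.94 ± 0.19 in wild type. AT3G10040, known as HRA1, a trihelix factor that restrains the hypoxia response, changed by 3.33 ± 0.17 in HRE1-RNAi and 3.50 ± 0.17 in wild type. The listed genes that were not called were AT3G10020, at 0.26 ± 0.14 in HRE1-RNAi and 0.16 ± 0.14 in wild type, and AT5G45960, at -0.66 ± 0.37 in HRE1-RNAi and 0.27 ± 0.37 in wild type, which was dim in all groups. Of all probe sets 7.51% were called higher and 10.7% lower in HRE1-RNAi, and 7.20% higher and 10.6% lower in wild type. Between the lines 0 of the 19 were called by limma in hypoxia, in normoxia or for the difference of responses. An unadjusted p below 0.05 was found for 2 of 19 in hypoxia (1036 of all 22746 probe sets), for 3 in normoxia (987 of all) and for 3 in the difference of responses (770 of all). The smallest of the last was that of AT5G39580, with a difference of responses of 0.96 ± 0.28 and an adjusted p of 0.85 by limma. CML38 had the smallest in normoxia, with HRE1-RNAi minus wild type at -0.97 ± 0.23 and an adjusted p of 0.34 by limma.

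**Figure D5:**
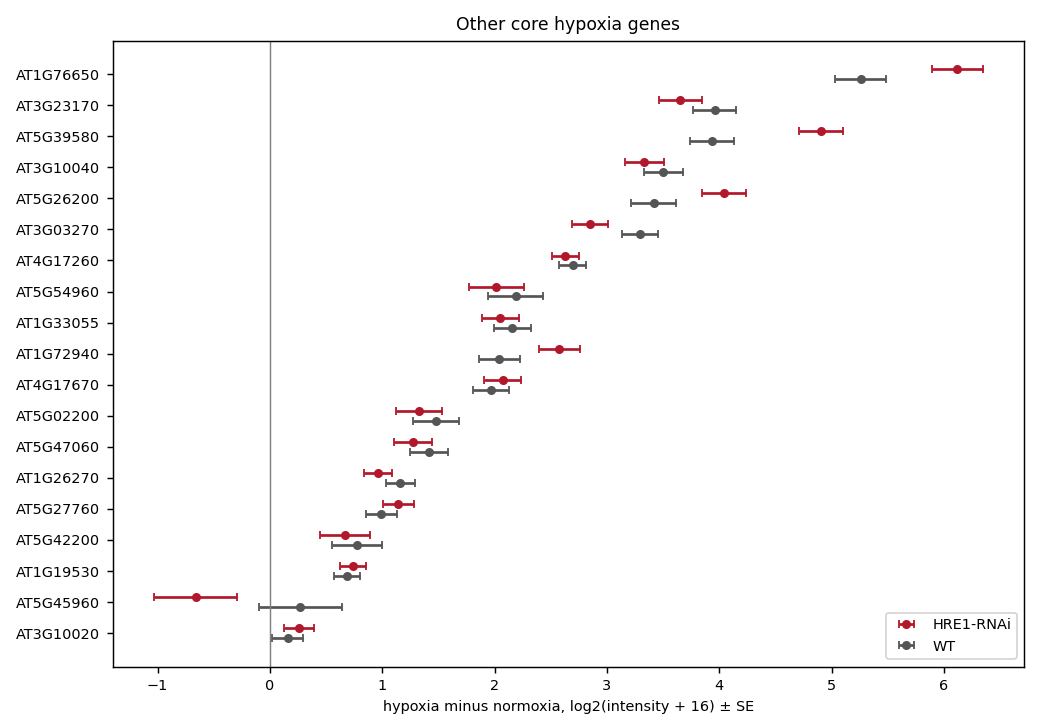
Hypoxia minus normoxia (log2 difference with its standard error) of the 19 other core hypoxia genes in HRE1-RNAi (upper point) and wild type (lower point), ordered by the wild type change. CML38 has the largest change in both lines, and AT3G10020 and AT5G45960 lie near 0 in wild type.

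Genes outside the set were ranked by how closely their log2 values followed the mean standardised profile of the 10 genes over the 16 arrays. The 13426 candidates were probe sets with a matched gene. The closest was AT4G17260, a lactate dehydrogenase gene of fermentation (r = 0.995), which averaged 3366 in HRE1-RNAi hypoxia and 534 in HRE1-RNAi normoxia, and 3496 in wild type hypoxia and 528 in wild type normoxia. AT3G10040 (HRA1) and AT3G03270, known as HRU1, a universal stress protein gene, followed with r = 0.995 and 0.994, and AT3G23170 and AT3G54040 with 0.993 and 0.989. The profile is dominated by the difference between hypoxia and normoxia, and 153 candidates had r above 0.95. By Spearman's rank correlation, 0 of these 5 were among the 5 closest. For single genes, AT4G17260 was the closest to AT3G27220 and AT5G66985, and AT3G10040 to AT4G27450 and AT2G17850. AT3G23170 was the closest to AT4G24110 and AT4G33560, and AT3G03270 to AT4G10270. AT5G10040 was closest to AT1G33055 (r = 0.99), another small core gene, AT3G29970 to AT3G28480 and AT5G44730 to AT4G39675.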

How the data were processed

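The deposited values are an intensity per probe set and array on a linear scale, made with MAS5 per the submitters' processing notes, with the version not given in the sources used here. They ranged from 0 to 41828 over 22810 probe sets, of which 64 manufacturer's controls were left out of the tests. Genes came from the probe table supplied with the series, where 13513 had a single gene, 8730 no gene and 503 more than 1. By gene identifier, 13436 of those with a single gene were found in the RefSeq gene table (TAIR10.1). Groups were taken from the sample titles.

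Group means of log2(intensity + 16) over all 16 arrays were estimated with limma 3.58.1 (R 4.3.3), with trend and robust moderation and 12 residual degrees of freedom. P-values were two-sided, adjusted by Benjamini-Hochberg within a contrast over all 22746 probe sets, and called below 0.05. The fit was also run on simulated data with independent noise and the same spread in all groups. That run does not cover the unequal spread and shared deviations seen for these genes. Array measures were compared by exact permutation in SciPy 1.17.1. The members and lists were chosen with earlier results of these data known. Named are all 10 members, the 5 closest genes in profile and the nearest of each member, and of the other core genes the 4 largest and 2 smallest changes in wild type. Alternatives were pseudocounts of 1 and 64, quantile normalization, median centring, a filter on the dimmest 40%, replicate blocks, the compared groups alone, plain moderation, array weights and leaving out arrays. Relatives by protein family and promoter and protein sequences, also planned, were not analysed here. No 2 arrays held identical values. The number of arrays limits the precision.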

Additional observations from a re-analysis of the deposited data

Results flagged for a closer look

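Among 76 sets of 4 arrays, for the 10 genes and 9 others named above, 1 set held an array far from the rest, where chance gives about 1 in 20. It was AT5G44730 in wild type hypoxia, with 3244 on array 3 against 2889 to 2931 on the other arrays, a gap that takes up a share of 0.88 of the group's range. The same array was above its group mean for 10 of 10 genes, and for 53.1% of all probe sets.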

How the results depend on the processing

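Under every alternative tried, replicate blocks included, 0 of 10 genes were called between the lines or in the difference of responses. Leaving out 1 array, the median change of the 10 genes was 3.96 to 4.46 in HRE1-RNAi and 4.39 to 4.63 in wild type. Same-numbered arrays had deviations that correlated at -0.09 to 0.42 over 24 pairs, 6 of them above 0.1, and the arrays were not treated as paired because not every pair exceeded 0.1. Within HRE1-RNAi the hypoxia and normoxia arrays correlated at 0.02, 0.15, 0.12 and 0.42 for numbers 1 to 4, and within wild type at 0.01, 0.07, 0.12 and 0.14. With the number as a fixed replicate block, 6 probe sets in normoxia and 6 in hypoxia were called between the lines, against 6 and 5 without. Counts over all probe sets between the lines moved more. In normoxia 6 became 18 with array weights, 17 without both HRE1-RNAi arrays numbered 4, and 6 to 10 without 1 array, HRE1-RNAi normoxia array 4 giving the 10. In hypoxia 5 became 9 with a pseudocount of 64, 8 with array weights, 3 with the compared groups alone, 19 without both arrays numbered 4, and 2 to 6 without 1 array, with 2 or 3 when wild type normoxia 2 or 3, wild type hypoxia 1, 3 or 4, or HRE1-RNAi hypoxia 2 or 3 was left out. For the difference of responses 4 became 7 with array weights and 1 to 6 without 1 array, with 1 or 2 when any wild type normoxia array, HRE1-RNAi normoxia 1, wild type hypoxia 2, or HRE1-RNAi hypoxia 2 or 3 was left out. Line differences that changed sign were all uncalled, and the cause was not tested. Without both arrays numbered 4 the values in normoxia were -0.22 for AT3G29970, -0.023 for AT3G27220, -0.041 for AT5G44730 and -0.11 for AT4G10270. Without both arrays numbered 4 the value in hypoxia was 0.00093 for AT5G66985. Without both arrays numbered 4 the values for the difference of responses were 0.0065 for AT5G10040, 0.041 for AT5G66985 and 0.062 for AT2G17850. With array weights the values in normoxia were -0.18 for AT3G29970, -0.036 for AT5G44730 and -0.067 for AT4G10270. With array weights the values for the difference of responses were 0.023 for AT4G27450, 0.038 for AT5G66985 and 0.033 for AT2G17850. With a pseudocount of 64 the value in normoxia was 0.019 for AT5G10040. With median centring the value for the difference of responses was 0.0026 for AT4G27450. Leaving out 1 array, the values in normoxia were -0.51 to 0.47 for AT5G10040, -0.22 to 0.37 for AT3G29970, -0.023 to 0.12 for AT3G27220, -0.041 to 0.24 for AT5G44730, -0.10 to 0.12 for AT4G27450, -0.13 to 0.079 for AT5G66985, -0.27 to 0.25 for AT2G17850 and -0.11 to 0.41 for AT4G10270. Leaving out 1 array, the values in hypoxia were -0.015 to 0.15 for AT4G24110, -0.034 to 0.060 for AT4G27450 and -0.10 to 0.00093 for AT5G66985. Leaving out 1 array, the values for the difference of responses were -0.90 to 0.076 for AT5G10040, -0.031 to 0.55 for AT3G29970, -0.024 to 0.26 for AT5G44730, -0.10 to 0.12 for AT4G27450, -0.14 to 0.067 for AT5G66985 and -0.48 to 0.046 for AT2G17850. The replicate blocks, the compared groups alone, the dim filter and plain moderation leave these differences as they are by design, so they could not change a sign. Quantile normalization could have done so and changed none.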

Other observations

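The genes next to the 10 on their chromosomes were taken from the order of protein-coding genes in the reference gene table. Of 20 such neighbours 12 were paired with a probe set, and 0 of the 10 genes lay next to another. In HRE1-RNAi 1 neighbour was called higher in hypoxia and 4 lower, and in wild type 0 higher and 3 lower. Of all probe sets 7.51% were called higher and 10.7% lower in HRE1-RNAi, and 7.20% higher and 10.6% lower in wild type. AT4G10280, next to the wound-induced gene AT4G10270, averaged 107 in HRE1-RNAi hypoxia and 415 in HRE1-RNAi normoxia, a change of -1.85 ± 0.21. In wild type it averaged 70.1 in hypoxia and 438 in normoxia, a change of -2.43 ± 0.21. AT3G27210, next to the kelch-repeat gene AT3G27220, changed by -0.95 ± 0.16 in HRE1-RNAi and -1.11 ± 0.16 in wild type. AT4G33550, next to the wound-induced gene AT4G33560, changed by -1.03 ± 0.14 in HRE1-RNAi and -0.50 ± 0.14 in wild type. PORB (AT4G27440), next to AT4G27450, was called lower in HRE1-RNAi (-0.71 ± 0.22) and had -0.63 ± 0.22 in wild type, which was not called. AT5G44720, next to the hydrolase gene AT5G44730, was the neighbour called higher in HRE1-RNAi (0.49 ± 0.12), where wild type had 0.10 ± 0.12. The neighbours were named after their values were seen.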
